A study of Homo sapiens with 4 samples.

Results

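TR15-MeTA5 and TR9-MeTA14, a pair of cell lines derived from LNCaP, were compared with each other in the absence of tetracycline, using 2 of the 4 arrays of the series, 1 array for each line. LNCaP is an established line of human prostate cancer cells with a luminal, androgen-responsive character. Each line carried a Tet repressor plasmid and, under its control, a transgene for NFkB (AD)-MBD, a FLAG-tagged fusion of an NFkB activation domain with a methyl-CpG-binding domain that is directed to methylated promoters. TR9 and TR15 were independent Tet repressor cells made from LNCaP, and each was then stably transfected with the fusion, so that the lines differ in both integration events as well as in their history of growth. The Tet repressor is meant to hold the promoter of the transgene off until tetracycline is added, and the uninduced arrays (-Tet) describe the lines before that. The level of the fusion on the -Tet arrays was not read. Whether a low level of it without tetracycline contributes to any line difference was not tested. The other 2 arrays (+Tet) hold the same lines after 4 days with tetracycline and served here as a second, separate pair for the line difference.

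DNA methylation at CpG-rich promoters is a lasting form of gene silencing, and cancer cell lines grown apart come to differ in which promoters are silent, in their chromosome copies and in their rate of growth. A methyl-CpG-binding domain recognises such promoters, and an activation domain tethered there recruits the transcription machinery. The state of the 2 lines before tetracycline is therefore the baseline that any response to the fusion starts from.

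All 34127 non-control probes of each array were read, and 25422 of them (74.5%) were paired with 19483 genes. The values are processed signals, background-subtracted fluorescence in arbitrary units. A difference is the log2 of TR15-MeTA5 over TR9-MeTA14 after each signal was divided by the 75th percentile of its array, which was 617.6 in TR9-MeTA14 -Tet and 366.6 in TR15-MeTA5 -Tet, a factor of 1.68. Equal raw signals on both arrays therefore give a positive difference. Replicate spots of a probe gave an SD of 0.085 for such a log2 difference, which covers spotting and scanning only. With 1 array a line there was no replicate of a culture, and no difference between the uninduced arrays has a test.

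Both lines kept the prostate luminal program. All 10 luminal defining markers were well above background in both lines, against 1 of 4 basal markers in each line, 0 and 1 of 4 neuroendocrine markers and 2 of 5 mesenchymal markers in each. Endothelial markers were above background in 2 of 3 cases in both lines, with summed signals of 461.7 and 330.6. Leukocyte markers were above background in 4 of 4 and 3 of 4 cases with signals that summed to 208.5 in TR9-MeTA14 and 215.7 in TR15-MeTA5. Both samples were cultures of LNCaP-derived cells, and the source of these low signals was not tested. Bulk RNA of a culture does not show how a signal is spread over its cells. KLK3, which encodes prostate-specific antigen, gave 144070 in TR9-MeTA14 and 135330 in TR15-MeTA5, a difference of 0.66. KRT18, a keratin of luminal cells, gave 47988 and 37462, a difference of 0.40. FOXA1, a pioneer transcription factor, gave 12379 and 6630 and differed by -0.15. These 3 genes lay within 2-fold between the lines.

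Across all genes the lines were close to each other. Of 19483 genes, 12975 were well above background in both lines, 873 in TR9-MeTA14 only, 330 in TR15-MeTA5 only and 5305 in neither. The log2 signals of the 2 arrays correlated with r = 0.971 over 19924 probes above background on both, a description of 2 arrays that share slide and probe set. Among the genes measured on both, 68.9% lay within 1.5-fold and the SD of the differences was 0.67. The median difference was 0.12 over the 13799 genes that could be compared, which are those measured on both arrays and those above background on one array with a bound above 1. When the genes measured on both were split into 4 equal parts by signal, the medians were 0.20 in the dimmest part, -0.01 and 0.05 in the next parts and 0.27 in the brightest.

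Of these 13799 genes, 1131 were at least 2-fold higher in TR15-MeTA5, a background of 8.2%, and 715 were at least 2-fold lower, a background of 5.18%. Of the 1131 higher genes 848 were measured on both arrays and 283 had a bound. Of the 715 lower genes 565 were measured and 150 had a bound. The lowest signals that counted as above background were 15.5 in TR9-MeTA14 -Tet and 15.4 in TR15-MeTA5 -Tet, before scaling. After scaling, a gene above background only in TR15-MeTA5 therefore passed 2-fold at a weaker raw signal than one above background only in TR9-MeTA14. Of the 330 genes above background only in TR15-MeTA5 283 passed, against 150 of the 873 only in TR9-MeTA14. A difference of 8-fold or more was seen for 46 higher and 37 lower genes. The balance of directions depended on the scaling. Higher genes made up 61.3% of those past 2-fold, but 50.6% after quantile normalization, 42.9% after loess, 46.6% after normexp with quantile normalization and 2.54% when arrays were scaled on spiked-in control RNA, which moved the median of all genes to -0.91. The differences below are to be read relative to these medians. Counts past 2-fold in each list are to be read beside the 8.2% and 5.18% of all genes.

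**Figure D1:**
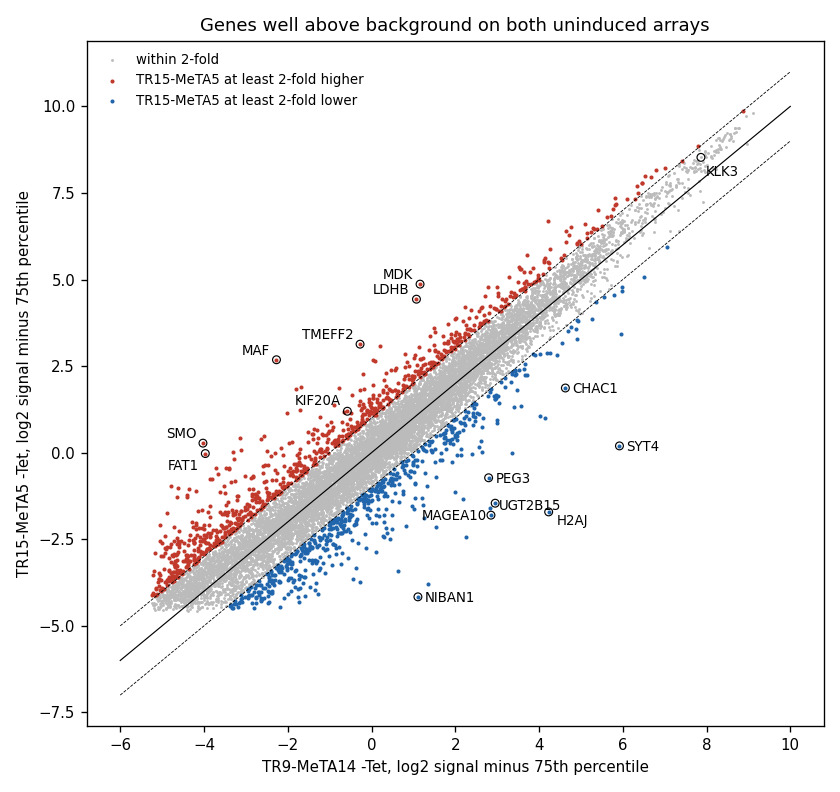
Scaled log2 signals of the genes well above background on both uninduced arrays, with TR9-MeTA14 -Tet on the horizontal axis and TR15-MeTA5 -Tet on the vertical axis. Each point is 1 gene on 1 pair of arrays, the solid line marks equality and the dashed lines 2-fold. Most genes lie between the dashed lines, while MAF, SMO and FAT1 lie far above them and SYT4, H2AJ and NIBAN1 far below.

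The genes highest in TR15-MeTA5 encoded a transcription factor, signalling receptors and secreted proteins. MAF, a basic leucine zipper transcription factor, gave 128 in TR9-MeTA14 and 2355 in TR15-MeTA5 and was 31.0-fold higher. SMO, the transducer of Hedgehog signalling, gave 37.9 and 444 and was 19.7-fold higher. FAT1, an atypical cadherin, gave 39.5 and 360.3 and was 15.4-fold higher. Each of these 3 genes was above background on both arrays, so the folds were measured and not bounds. SCGB1D2, a secretoglobin, was 14.1-fold higher, MDK, the growth factor midkine, 13.1-fold, ADGRG6, an adhesion G protein-coupled receptor, 12.5-fold, PTGER4, a prostaglandin E2 receptor, 12.2-fold, and CACNA1H, a T-type calcium channel subunit, 11.8-fold. TMEFF2, a transmembrane protein made in the prostate, gave 510.9 and 3217 and was 10.6-fold higher. TLE1, a Groucho corepressor, was 11.99-fold higher by its brighter probe, but its other probe differed by only 0.8 on the log2 scale.

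The genes lowest in TR15-MeTA5 encoded a histone variant, a vesicle protein, enzymes and a tumour antigen. H2AJ, a histone H2A variant, gave 11592 in TR9-MeTA14 and 112 in TR15-MeTA5 and was 61.4-fold lower. SYT4, a synaptotagmin of secretory vesicles, gave 37409 and 419.9 and was 52.9-fold lower. NIBAN1, a stress-responsive protein, gave 1332 and 20.5 and was 38.6-fold lower. All 3 were still above background in TR15-MeTA5. FOXD1, a forkhead factor, was 35.1-fold lower, SQOR, the mitochondrial sulfide oxidase, 26.1-fold, MAGEA10, a cancer-testis antigen, 21.3-fold, PXDN, a peroxidasin of the extracellular matrix, 16.6-fold, and SOD3, the extracellular superoxide dismutase, 12.9-fold. SEPTIN6 was 21.4-fold lower by its brighter probe, while its other probe differed by -0.6 on the log2 scale.

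A further set of genes was above background in 1 line only, for which the fold is a lower bound set by the weakest signal that counted as above background. TFPI, the inhibitor of tissue factor in coagulation, gave 2878 in TR9-MeTA14 and 11.97 in TR15-MeTA5 and was at least 111-fold lower. FKBP9, a peptidyl-prolyl isomerase, was at least 34.7-fold lower, PASD1, a cancer-testis antigen, at least 33.3-fold, and PCDH7, a protocadherin, at least 18.3-fold. BEX5, SORBS2, SMIM3 and ENTREP2 followed with bounds between 11.1-fold and 15.5-fold. In the other direction MBD3L2, a germ-cell relative of the methyl-CpG-binding protein MBD3, gave 16.04 in TR9-MeTA14 and 388 in TR15-MeTA5 and was at least 40.7-fold higher. MYOD1, the muscle determination factor, was at least 26.1-fold higher with 13.7 and 239, and ZNF475, PRAMEF14, PRAMEF12, PRAMEF4, TMEM100 and FSHB had bounds between 14.4-fold and 17.9-fold. FSHB, the beta subunit of follicle-stimulating hormone, and ZNF475 were below background on both +Tet arrays.

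Promoter sequences from RefSeq (GRCh38.p14) are shown for 5 of these genes. Of these 4 are genes found in 1 line only, and FAT1, which was measured in both, is shown as a CG-rich promoter for contrast. The sets of such genes had unlike CG counts in the 2 lines, which these examples do not show, but the sets were cut at unlike raw signals. The 250 bases before the annotated start are given 5′ to 3′ on the gene's strand, with CG pairs, the pairs that carry DNA methylation, in capitals. MBD3L2 lies at chr19:7049071-7049320 on the plus strand, PRAMEF12 at chr1:12773488-12773737 on the plus strand, TFPI at chr2:187554436-187554685 on the minus strand, PASD1 at chrX:151563425-151563674 on the plus strand and FAT1 at chr4:186726697-186726946 on the minus strand.
MBD3L2: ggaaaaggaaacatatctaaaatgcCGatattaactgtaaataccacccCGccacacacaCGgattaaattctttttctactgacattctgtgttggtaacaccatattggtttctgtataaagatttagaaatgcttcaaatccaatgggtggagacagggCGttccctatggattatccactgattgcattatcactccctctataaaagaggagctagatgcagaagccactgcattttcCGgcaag
PRAMEF12: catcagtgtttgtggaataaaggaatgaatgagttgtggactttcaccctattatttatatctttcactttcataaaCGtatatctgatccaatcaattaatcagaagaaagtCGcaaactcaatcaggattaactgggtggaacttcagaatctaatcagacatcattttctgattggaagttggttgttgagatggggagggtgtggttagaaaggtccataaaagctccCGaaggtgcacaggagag
TFPI: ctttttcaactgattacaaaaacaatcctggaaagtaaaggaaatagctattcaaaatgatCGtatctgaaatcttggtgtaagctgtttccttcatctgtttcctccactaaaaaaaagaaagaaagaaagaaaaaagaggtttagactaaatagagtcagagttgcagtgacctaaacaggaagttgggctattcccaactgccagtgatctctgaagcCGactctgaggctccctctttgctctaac
PASD1: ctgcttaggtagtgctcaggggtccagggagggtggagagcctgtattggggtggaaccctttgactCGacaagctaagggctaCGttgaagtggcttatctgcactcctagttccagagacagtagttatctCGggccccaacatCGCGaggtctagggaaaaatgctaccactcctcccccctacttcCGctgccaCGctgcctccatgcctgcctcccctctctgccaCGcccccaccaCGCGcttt
FAT1: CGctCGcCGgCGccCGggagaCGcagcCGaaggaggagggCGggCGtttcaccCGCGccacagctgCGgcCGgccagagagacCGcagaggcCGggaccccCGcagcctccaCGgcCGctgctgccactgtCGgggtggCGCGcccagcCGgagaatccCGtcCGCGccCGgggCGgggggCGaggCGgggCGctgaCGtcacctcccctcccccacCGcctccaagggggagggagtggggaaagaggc

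These stretches held 5 CG pairs in MBD3L2, 3 in PRAMEF12, 2 in TFPI, 10 in PASD1 and 32 in FAT1. Windows of 300 bases, from 250 before to 50 after the start, were then counted for every gene with a promoter in the table. The 212 genes above background only in TR15-MeTA5 with a bound of 2-fold or more had a median of 7 CG pairs, and 44.3% of them had 5 or fewer. The 117 such genes of TR9-MeTA14 had a median of 21, with 21.4% at 5 or fewer. TFPI, with 4 in this window, and PASD1, with 11, lay below that median, while MBD3L2 and PRAMEF12 had 5 each. The median was 26 for genes above background in both lines, 8 for genes above background in neither, and 14 for all promoters. Genes measured in both lines did not separate in this way, with medians of 24 for those at least 2-fold higher and 24 for those at least 2-fold lower in TR15-MeTA5. The median of the TR15-MeTA5 set lay close to that of undetected genes. With the array scaling, the TR15-MeTA5 set admitted weaker raw signals than the TR9-MeTA14 set, so the 2 medians do not compare like sets of genes. The part of weak signals in the CG counts was not tested.

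Genes of the PRAME family and MBD3L2, which are normally expressed in germ cells and early embryos, were among the clearest of the genes detected only in TR15-MeTA5. Of 15 PRAMEF genes on the array, a family chosen after its values were seen, 10 could be compared, 9 of them only because they were above background in TR15-MeTA5 alone, which fixes their direction. Their differences, lower bounds in those 9 cases, had a median of 3.21, and of 1.63 or more under the other scalings. PRAMEF12 gave 3.25 in TR9-MeTA14 and 153 in TR15-MeTA5, PRAMEF14 gave 9.67 and 157, and PRAMEF4 gave 11.1 and 149. The highest PRAMEF signal in TR9-MeTA14 was 58.1 and the highest in TR15-MeTA5 was 262. With tetracycline the same family was above background in both lines, where PRAMEF12 gave 6082 in TR9-MeTA14 and 2984 in TR15-MeTA5, and MBD3L2 gave 28245 and 25609. The median PRAMEF difference on the +Tet arrays was -0.41, with 0 of 14 genes at least 2-fold apart in either direction. PRAMEF genes are near-identical copies, so a probe may read several of them.

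More generally, of the 283 genes above background only in TR15-MeTA5 -Tet with a bound of 2-fold or more, 155 (54.8%) were above background in TR9-MeTA14 +Tet and 133 (47.0%) in TR15-MeTA5 +Tet, while 97 (34.3%) were above background on neither +Tet array. Of the 150 genes found only in TR9-MeTA14, 123 (82.0%) were above background in TR9-MeTA14 +Tet and 69 (46.0%) in TR15-MeTA5 +Tet. Genes detected in neither uninduced line were above background in 25.03% and 13.93% of cases on those arrays.

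**Figure D2:**
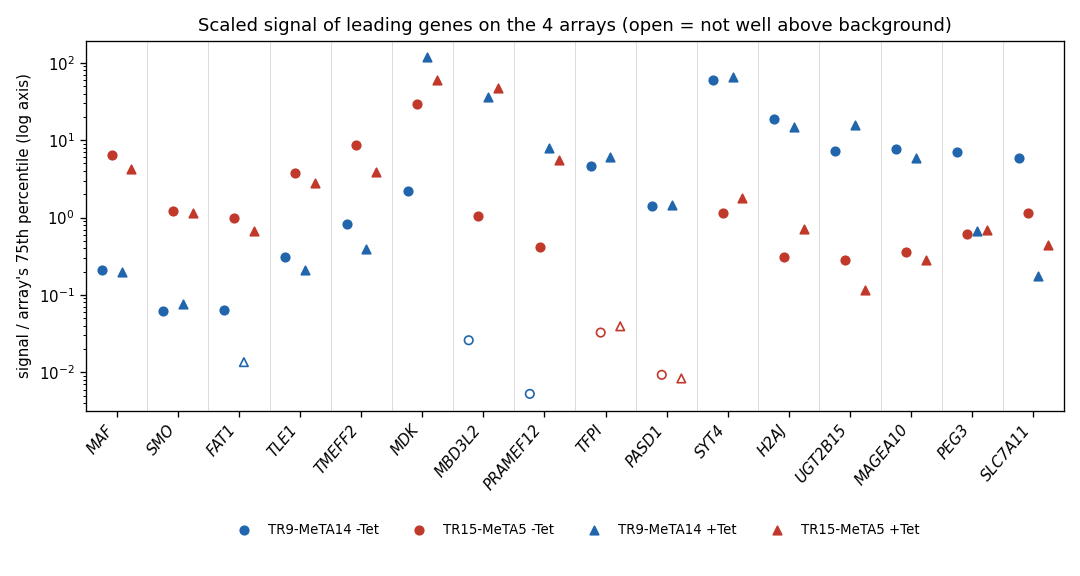
Signal of 16 genes divided by the 75th percentile of its array, on a log axis, with 1 point for each of the 4 arrays; circles are -Tet, triangles +Tet, blue TR9-MeTA14 and red TR15-MeTA5, and open symbols mark probes not well above background. MAF, SMO, TFPI, PASD1, SYT4 and MAGEA10 separate by line with and without tetracycline, while MDK, MBD3L2, PRAMEF12, PEG3 and SLC7A11 separate by line only without it or turn round with it.

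Cell cycle genes were higher in TR15-MeTA5 as a group. Of 39 proliferation genes, all of them compared, 23 were at least 2-fold higher, 0 were at least 2-fold lower and all 39 had a positive difference, with a median of 1.08 against 0.12 for all genes. The median stayed positive under every scaling tried, from 0.05 with spike-in scaling to 1.09, but the number past 2-fold was 12 after quantile normalization or loess, 10 after normexp and 0 with spike-in scaling. KIF20A, a mitotic kinesin, gave 414 in TR9-MeTA14 and 840.4 in TR15-MeTA5 and was 3.42-fold higher. E2F1, the factor that switches on S phase genes, gave 443 and 813 and was 3.09-fold higher. CCNA2, cyclin A2, gave 320.4 and 582 and was 3.06-fold higher. Of 9 MCM family genes compared, 6 were at least 2-fold higher and 1 had a negative difference, of -0.43. The helicase subunits MCM2, MCM3, MCM5, MCM6 and MCM7 lay between 2.10-fold and 2.29-fold higher and MCM4 was 1.98-fold higher. MKI67, the standard proliferation marker, differed little, with 419.6 and 320.6 and a difference of 0.36, and CCNE2 differed least, by 0.05.

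The histone genes of the replication-dependent clusters, a family picked after its values were seen, followed the same direction. Of 65 on the array 60 could be compared, 38 were at least 2-fold higher in TR15-MeTA5 and all 60 had a positive difference, with a median of 1.21. The median was 0.18 with spike-in scaling and 0.92 or more with the other scalings. H2AC6 gave 926 and 2004 and was 3.65-fold higher, and H4C3, a histone H4 gene, gave 54684 and 80808 and was 2.49-fold higher. These genes differ little in sequence from one another and cross-reading between probes cannot be separated. H2AJ, which lies outside the clusters and is not tied to replication, was the gene with the largest measured difference in the opposite direction.

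Genes of the amino acid and endoplasmic reticulum stress responses were lower in TR15-MeTA5. Of 31 genes of the ATF4 and ER stress list, 13 were at least 2-fold lower, 0 were at least 2-fold higher and 25 had a negative difference, with a median of -0.79. The other 18 lay within 2-fold, and CRELD2, SDF2L1, PSPH and ALDH1L2 were the members nearest to no difference. The median stayed negative under every scaling, from -1.82 to -0.78. CHAC1, which degrades glutathione, gave 15284 in TR9-MeTA14 and 1338 in TR15-MeTA5 and was 6.78-fold lower. SLC7A11, the cystine transporter, gave 3685 and 414 and was 5.28-fold lower. CTH, which makes cysteine, gave 7337 and 936 and was 4.65-fold lower. DDIT3, the stress factor CHOP, gave 1507 and 244 and was 3.66-fold lower. These 4 are targets of the ATF4 branch, as are TRIB3, which was 2.30-fold lower, MTHFD2, 2.62-fold, and ASNS, asparagine synthetase, 2.08-fold. ATF4 itself gave 149140 and 55925 and differed by -0.66. Chaperones of the endoplasmic reticulum did not share 1 direction, with differences of 0.90 for CALR, the highest of the list, 0.34 for HSP90B1 and -0.49 for HSPA5. XBP1, a transducer of the unfolded protein response, was 2.67-fold lower.

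**Figure D3:**
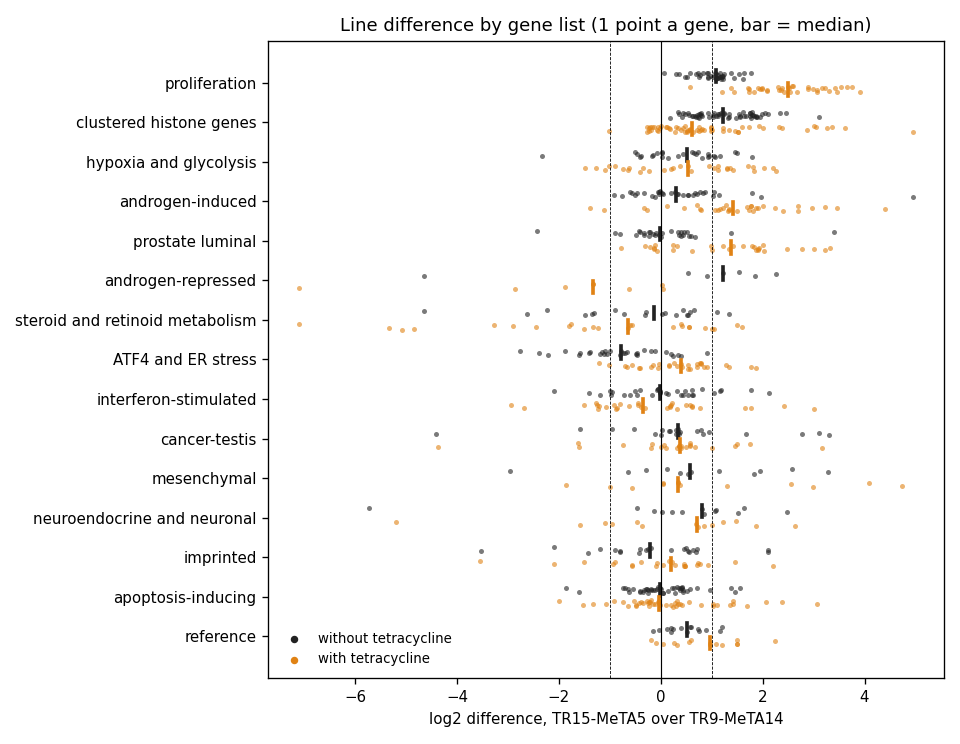
Differences between the lines for the members of 15 gene groups, on a log2 scale, without tetracycline in black and with it in orange; each point is 1 gene, thick bars are medians and dashed lines mark 2-fold. Without tetracycline the proliferation and clustered histone genes sit to the right with medians of 1.08 and 1.21, and the ATF4 and ER stress genes to the left with a median of -0.79.

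Most androgen signalling genes lay within 2-fold, with a few exceptions. Of 34 androgen-induced genes 6 (17.6%) were at least 2-fold higher in TR15-MeTA5 and 0 lower, against 8.2% and 5.18% of all genes. Their median was 0.30, against 0.12 for all genes, and turned negative, to -0.73, with spike-in scaling. When the probes of a gene were averaged it was 0.11, and the all-gene median was also 0.11. Beside MAF, the 6 were GNMT, a glycine methyltransferase, at 3.92-fold, NDRG1, a stress and differentiation gene, at 3.45-fold, PLPP1 at 2.197-fold, SMS, spermine synthase, at 2.05-fold and FKBP5, a cochaperone of steroid receptors, at 2.04-fold. Classical targets were flat, with differences of 0.20 for KLK2 and -0.33 for TMPRSS2. Of 30 luminal genes, all compared, 2 were at least 2-fold higher, TMEFF2 and KRT19, a keratin, which was 2.60-fold higher, and 1 was lower. That gene, TRPM8, a cation channel of prostate epithelium, gave 140.2 in TR9-MeTA14 and 11.8, below background, in TR15-MeTA5 and was at least 5.40-fold lower. The luminal median was -0.02.

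Genes that androgen represses were few but spread widely. Of 7 compared, 4 (57.1%) were at least 2-fold higher in TR15-MeTA5 and 1 (14.3%) lower, against 8.2% and 5.18% of all genes. DDC, which makes dopamine from its precursor, gave 158.5 and 448 and was 4.76-fold higher, and ACKR3, a decoy receptor for a chemokine, gave 7053 and 15018 and was 3.59-fold higher. BCHE was 2.90-fold higher, and SI, the intestinal enzyme sucrase-isomaltase, was detected only in TR15-MeTA5, at 21.4, and was at least 2.33-fold higher. This SI signal was near the lowest that counted as above background in TR15-MeTA5 -Tet, 15.4, and it passed 2-fold only through the array scaling. UGT2B15, which conjugates and inactivates androgens, gave 4460 and 105 and was 25.2-fold lower. The line TR9-MeTA14 therefore had the higher level of this enzyme and the lower level of the other 4 genes.

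The wider list of steroid and retinoid metabolism had 2 of 20 genes (10%) at least 2-fold higher and 6 (30%) lower in TR15-MeTA5. The shares of all genes were 8.2% and 5.18%. ALDH1A3, which makes retinoic acid, gave 3838 in TR9-MeTA14 and 370.4 in TR15-MeTA5 and was 6.15-fold lower. DHRS3, a retinal reductase, was at least 4.71-fold lower, and CYP26A1, which breaks retinoic acid down, at least 2.81-fold. UGT2B11 was 2.56-fold lower beside UGT2B15, and these transferases are close paralogs that probes may share. SULT2B1, a sulfotransferase, was 2.49-fold lower. CYP11A1, the first enzyme of steroid synthesis, was 2.14-fold higher.

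Cancer-testis and imprinted genes differed in both directions. Of 23 cancer-testis genes 4 (17.4%) were at least 2-fold higher in TR15-MeTA5 and 2 (8.7%) lower, against 8.2% and 5.18% of all genes. PAGE1 gave 62.8 and 368 and was 9.88-fold higher, MAGEC1 gave 42.5 and 217 and was 8.62-fold higher, MAGEC2 was at least 6.87-fold higher and PAGE4 was 3.18-fold higher. MAGEA10 ran the other way with 4783 in TR9-MeTA14 and 133 in TR15-MeTA5, as did TPTE, whose bound was at least 3.01-fold. The MAGE and PAGE genes have close copies on the X chromosome. Of 22 imprinted genes, which are expressed from 1 parental copy, 2 (9.09%) were higher and 4 (18.2%) lower. Their share higher was near that of all genes. IGF2, a fetal growth factor, gave 111 and 285 and was 4.31-fold higher, and CDKN1C, a cyclin-dependent kinase inhibitor, gave 510.3 and 1296 and was 4.28-fold higher. PEG3 gave 4291 and 222 and was 11.5-fold lower, and its neighbour ZIM2, which shares its imprinted promoter, gave 234 and 32.3 and was 4.30-fold lower. MKRN3 was 2.70-fold and L3MBTL1 2.30-fold lower.

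Adhesion and lineage genes showed single large differences. Of 12 mesenchymal genes 5 (41.7%) were at least 2-fold higher and 1 (8.33%) lower, against 8.2% and 5.18% of all genes. FN1, fibronectin, gave 47.1 and 272 and was 9.74-fold higher, LGALS1, galectin-1, gave 649.8 and 2293 and was 5.95-fold higher, and TWIST1 was 3.55-fold higher. COL1A1, a collagen chain, gave 475 and 36.4 and was 7.74-fold lower. Of 11 basal epithelial genes 3 (27.3%) were higher, among them the laminin chains LAMB3 at 4.36-fold and LAMA3 at 2.68-fold. The 2 lower (18.2%) were the integrins ITGA6 at 2.30-fold and ITGB4 at 2.05-fold. Of 13 neuroendocrine and neuronal genes 5 (38.5%) were higher and 1 (7.69%), SYT4, was lower. Of the 32 on the array, 19 were above background in neither line. TUBB3, a neuronal tubulin, gave 540.4 and 1781 and was 5.55-fold higher. Clustered beta protocadherins, picked after their values were seen, all leaned the same way, with 7 of 11 compared genes at least 2-fold higher, a median of 1.23 and 0.19 with spike-in scaling.

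Energy and lipid metabolism, interferon and survival genes gave smaller counts. In the hypoxia and glycolysis list 6 of 28 genes (21.4%) were at least 2-fold higher and 1 (3.57%) lower. The shares of all genes were 8.2% and 5.18%. The list's median was 0.52, and -0.60 with spike-in scaling. LDHA, lactate dehydrogenase A, gave 21318 and 35620 and was 2.82-fold higher, and BNIP3, a mitophagy receptor, was 2.76-fold higher, whereas CA12, a carbonic anhydrase, was at least 5.07-fold lower. LDHB, the partner subunit of LDHA, which was picked after its value was seen, gave 1299 and 7916 and was 10.3-fold higher. In the cholesterol and fatty acid list 3 of 30 genes (10%) were lower, LSS at 2.41-fold, FDFT1 at 2.08-fold and SREBF2 at 2.03-fold. EBP alone (3.33%) was higher, at 2.17-fold. Of 34 interferon-stimulated genes 5 (14.7%) were higher, led by CMPK2 at 4.39-fold, and 4 (11.8%) lower, led by BST2, tetherin, at 4.27-fold. The reference genes themselves were not flat, since GAPDH was 2.30-fold and PGK1 2.23-fold higher and 13 of 15 had a positive difference, with a median of 0.52 that was -0.05 after loess, -0.02 after quantile normalization and -0.52 with spike-in scaling.

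The remaining lists are counted beside the 8.2% of all genes higher and 5.18% lower. Apoptosis-inducing genes had 3 higher and 2 lower of 44 with a median of -0.01, and survival genes 1 higher of 10, BIRC5, or survivin, at 2.71-fold. Of 40 genes hypermethylated in prostate cancer, 21 (52.5%) were above background in neither line, against 27.2% of all genes, and of 15 compared 3 were higher and 2 (13.3%) lower. DNA methylation machinery had 1 higher, UHRF2 at 2.29-fold, and 1 lower, IDH1 at 2.60-fold, of 17. NF-kB subunits had 0 of 10 past 2-fold, NF-kB targets 3 (21.4%) higher of 14, HLA class I presentation 1 higher of 17, receptor tyrosine kinases 4 higher of 28, metallothioneins 1 lower of 10, and HOX genes 1 higher and 1 lower of 15. Leukocyte and endothelial genes had 1 higher and 1 lower of 7.

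Of the apoptosis genes that the study listed as upregulated after induction, 3 had a measured difference between the lines before it and 2 were below background in both. PYCARD, an adaptor of inflammasome and apoptosis signalling, was below background in both lines with 8.002 in TR9-MeTA14 and 10.1 in TR15-MeTA5. TNFRSF25, a death receptor, was above background in both, with 306 and 167 and a difference of -0.12, and BIK, a BH3-only protein, gave 1465 and 715 and a difference of -0.28. HRK, another BH3-only protein, gave 392.1 and 76.9 and was 3.03-fold lower in TR15-MeTA5. CIDEA, a cell death activator, was below background in both lines. Other genes tied to the construct or to prostate cancer were read beside them. GSTP1, a glutathione transferase whose promoter is methylated in most prostate cancers, gave 22.3 and 17.9 and was above background in 1 line with no bound above 1. CDH13 and ERG were below background in both. RELA, an NFkB subunit with an activation domain, gave 660.4 and 468 and a difference of 0.26, and MBD2, a methyl-CpG-binding protein, gave 5088 and 3697 and a difference of 0.29.

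Genes that neighbour each other on a chromosome shared small differences over long stretches. When the 12958 placed genes were cut into 242 blocks of 51 neighbours, block medians ranged from -0.51 to 0.62. Chromosome 1 had a step, described after its values were seen. The 781 genes before its widest stretch without a gene, which holds the centromere, had a median of -0.15, and the 594 genes after it a median of 0.41, with 32.5% and 72.2% of genes above the all-gene median. With tetracycline the medians of the same sides were -0.20 and 0.41. The step of 0.56 was 0.39 after normexp and 0.52 after quantile normalization or loess, and a uniform rescaling of an array cannot change it.

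Whole chromosomes differed in the same manner. Chromosome 3 had a median of 0.36 over 690 genes without tetracycline and 0.48 with it, chromosome 2 had -0.24 and -0.19 over 805 genes, and chromosome 15 had -0.26 in both states over 428 genes. Chromosome 19 had 0.30 without tetracycline and 0.05 with it. Sliding windows of 51 genes passed a median of 0.5 in 13 stretches, 11 higher and 2 lower in TR15-MeTA5, a balance that turned to 1 higher and 7 lower after loess and 1 and 2 after normexp with quantile normalization. The longest was on chromosome 6 from CD83 to ZKSCAN3, with a median of 0.54, which holds the large histone gene cluster, and its median on the +Tet arrays was 0.18. A stretch of 99 genes on chromosome 3 from CNTN6 to TMPPE had 89 genes of positive sign and medians of 0.51 and 0.62 without and with tetracycline. FBLN2, an extracellular matrix protein, and LRRN1 led it. The lower stretches ran on chromosome 2 from RTN4 to SFXN5, with 78 genes and a median of -0.46 in both states, and on chromosome 15 from CHST14 to EID1, with 80 genes and medians of -0.44 and -0.30, where SQOR and CHAC1 lay. A stretch of 75 genes on chromosome 9 from FCN1 to TUBBP5 had a median of 0.64 without tetracycline and -0.09 with it.

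**Figure D4:**
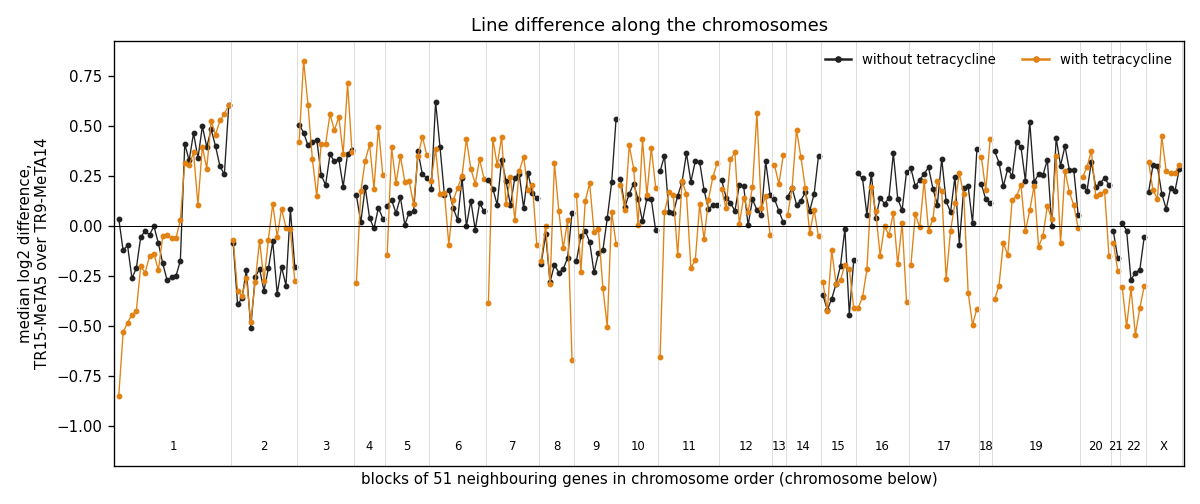
Median difference between the lines in 242 blocks of 51 neighbouring genes, in chromosome order, on a log2 scale, without tetracycline in black and with it in orange, with grey lines between chromosomes. The blocks of the second part of chromosome 1 and of chromosome 3 lie above 0 in both states and most of those of chromosomes 2 and 15 below it.

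The arrays with tetracycline showed which line differences recurred in a second pair of RNA samples that shared no array with the first. Of the 1131 genes higher in TR15-MeTA5 without tetracycline, 983 could be compared with it and 454 (46.2%) were again at least 2-fold higher, against 14.2% of all genes. Of the 715 lower genes, 680 could be compared and 293 (43.1%) were again at least 2-fold lower, against 10.4% of all genes. The sign was kept by 77.7% of the higher and 80.1% of the lower genes. Across 12702 genes measured on all 4 arrays the 2 line differences had r = 0.452 and rho = 0.441, given as a description because genes are not independent and the arrays share a slide. The medians of the 242 blocks had r = 0.486 and rho = 0.440.

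Several single genes recurred in direction, while the size of the fold moved for some, as for H2AJ, UGT2B15 and LDHB. MAF was 21.0-fold higher in TR15-MeTA5 with tetracycline, with 154 and 2267, SMO 14.7-fold and TMEFF2 10.0-fold. TFPI was at least 153-fold, PASD1 at least 41.0-fold, SYT4 36.7-fold, H2AJ 21.0-fold and MAGEA10 20.7-fold lower. UGT2B15 was 137-fold lower with 12301 and 62.5. LDHB was 75.2-fold higher with 162 and 8512. Other genes did not recur. PEG3 differed by 0.05 with tetracycline, where it gave 519 in TR9-MeTA14 and 374 in TR15-MeTA5, MDK by -0.99 with 91098 and 32072, and LGALS1 by -0.99 with 60916 and 21439. MDK and LGALS1 were higher in TR15-MeTA5 without tetracycline and lower with it.

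The gene groups behaved unequally with tetracycline. The proliferation median was 2.49, further from 0 than without tetracycline, and the clustered histone median was 0.61. The ATF4 and ER stress median was 0.41, with the sign turned, and of its 31 genes 4 were at least 2-fold higher and 2 lower in TR15-MeTA5. The luminal and androgen-induced medians, -0.02 and 0.30 without tetracycline, were 1.38 and 1.43 with it. The androgen-repressed median turned from 1.22 to -1.33, and of 8 genes compared with tetracycline 0 were at least 2-fold higher and 5 lower. These pairs of medians come from 4 arrays and the difference between them was not tested.

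**Figure D5:**
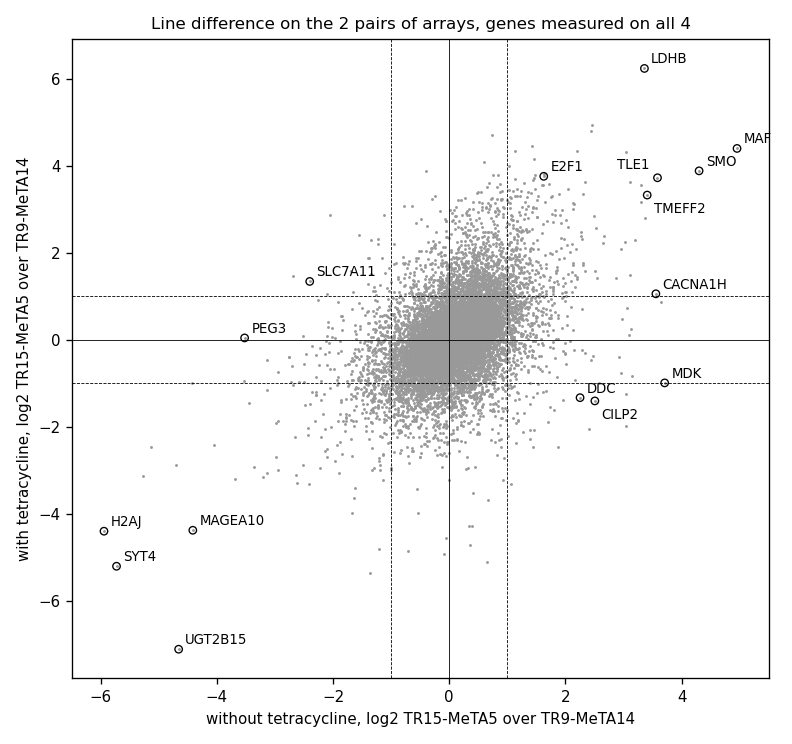
Difference between the lines without tetracycline (horizontal axis) and with it (vertical axis), both as log2 of TR15-MeTA5 over TR9-MeTA14, for genes measured on all 4 arrays, with 1 point a gene and dashed lines at 2-fold. MAF, SMO, TMEFF2 and TLE1 lie far from 0 on both axes at the upper right, UGT2B15, SYT4, H2AJ and MAGEA10 at the lower left, and SLC7A11, DDC and CILP2 in the quadrants of opposite sign.

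A line effect over both treatment states was fitted with limma, with tetracycline as a block and the 4 arrays as samples. Of 22821 probes 0 were higher and 0 lower in TR15-MeTA5 at an adjusted p below 0.05, a background of 0% in each direction, and 3632 had an unadjusted p below 0.05. The smallest adjusted p in limma was 0.134, for TFPI and PASD1, whose signals in TR15-MeTA5 were below background on both of its arrays, so that the fitted size is not given. Among genes above background on all 4 arrays, SYT4 had an estimate of -5.46, MAGEA10 with -4.39 and MAF with 4.67 and a limma adjusted p of 0.164 for both of the last. No block, no intensity trend, quantile normalization and a filter on all 4 arrays gave 0 probes as well, with 1615, 3641, 3397 and 3323 below the unadjusted threshold and smallest adjusted p values of 0.218, 0.130, 0.0541 and 0.201 in limma. The fit with the block left 1 residual degree of freedom per probe. That residual is the change of the line difference with tetracycline, and not a spread between like arrays.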

How the data were processed

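RNA of each line with or without tetracycline was hybridised to 4 one-colour Agilent arrays on one slide. The authors deposited the intensity of every spot. Per the file headers, Agilent Feature Extraction 10.7.3.1 made the background-subtracted processed signal, while the submitters' processing notes name 9.5.1. The signal was not normalised between arrays, and a deposited series table holds the same values. The array design was annotated on hg19.

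Spots that Feature Extraction had marked as outliers, 255 to 344 on an array, were dropped. Log2 signals were averaged over the remaining spots of a probe, and each array was scaled by its 75th percentile, taken over 34127 probes without controls. The well-above-background flag of Feature Extraction decided detection. A probe above background on 1 of 2 arrays received a bound, with the other array set to the higher of its own signal and the lowest signal above background there, between 13.9 and 19.2 on the 4 arrays, and no fold was given for a bound under 1. Probes were named through RefSeq accessions (GRCh38.p14), which also gave the gene order, and the brightest probe stood for a gene. A gene counted as different at 2-fold. Precision is limited by having 1 array a condition. Where nothing says that samples came from separate cultures, limma p-values measure only the spread between these arrays. With the block, that spread is how far the line difference changed between the 2 treatment states, as each line had 1 array a state.

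Models were fitted in limma 3.58.1 (R 4.3.3) and other steps run in Python 3.11.15 (numpy 2.4.6, pandas 2.3.3), after checks on simulated data. Adjusted p values are Benjamini-Hochberg values over probes above background on at least 2 arrays. The alternatives were other scalings, filters, cut-offs and probe rules, and leaving out an array was not possible. The normexp setting (offset 50) used median pixel intensities.

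The comparison and the gene lists were chosen with earlier results of these data known. The genes named are the 10 largest measured differences and 8 largest bounds in each direction, members of each list past 2-fold, at most 5 in each direction, luminal, reference and study genes, of which the text gives some in counts only, members nearest to no difference, and leading genes of stretches. ASNS, ATF4, CALR, FKBP5, H4C3, HSP90B1, HSPA5, LDHB, MTHFD2, SULT2B1, TRIB3, XBP1 and the MCM genes fell outside this rule and were chosen after their values were seen, and first and last genes only mark the ends of stretches. Some genes of the study are not reported here.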

Additional observations from a re-analysis of the deposited data

Results flagged for a closer look

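A total of 59 genes at least 2-fold higher in TR15-MeTA5 without tetracycline were at least 2-fold lower with it, and 37 ran the other way. Of these, 69 were well above background on all 4 arrays. The difference between the 2 states was not tested, because a fit with that term uses up all 4 arrays.

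Among named genes, CILP2, a cartilage matrix protein, differed by 2.51 without tetracycline and by -1.40 with it. DDC differed by 2.25 and -1.33, SI by 1.22 and -2.86, CYP3A5, a drug-metabolising enzyme, by 1.34 and -1.51, FMO4, a flavin monooxygenase, by 1.19 and -1.83, OAS2, an interferon-induced enzyme, by 1.18 and -1.23, and EPHA3, an ephrin receptor, by 1.15 and -1.02. SLC7A11 turned the other way, from -2.40 to 1.34. The values of SI and CYP3A5 without tetracycline and of EPHA3 with it are bounds.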

How the results depend on the processing

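With 1 array a line, the count of genes past 2-fold moved with the scaling. Against 1131 higher and 715 lower genes, spike-in scaling gave 160 and 6146, loess 734 higher, normexp 348 and 398, no filter with plain ratios 2372 higher, a cut-off of 3-fold 343 and 240, and one of 1.5-fold 2846 and 1776. Proliferation genes past 2-fold, 23 of 39, numbered 12 after quantile normalization, 12 after loess, 10 after normexp, 0 with spike-in scaling and 3 at 3-fold. ATF4 and ER stress genes, 13 of 31, numbered 25 with spike-in scaling and 6 at 3-fold, and clustered histone genes, 38 of 60, numbered 5 and 21. Among the named genes past 2-fold, 1 changed sign, FKBP5, at -0.0065 with spike-in scaling, which lowers all differences alike. Sizes moved far more often. Of 141 named gene values, 88 moved by 0.085 or more on the log2 scale after quantile normalization and 89 after loess. The number was 128 after normexp and 140 with spike-in scaling. Apart from spike-in scaling, the cause of these moves was not tested. Stretches of neighbours, 11 higher and 2 lower, numbered 30 and 6 in windows of 25 genes, 3 and 0 in the widest windows tried, 1 and 7 after loess, and 1 higher after normexp. Without the block, limma gave 1615 probes at an unadjusted p below 0.05 in place of 3632. No paired analysis was possible because all 4 arrays carry the same replicate number, with 1 array a condition. The block in limma was the treatment state.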
